A study of Rattus norvegicus with 27 samples.

Results

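The 3 arrays of postnatal day 15 (P15) were compared with the 3 arrays of postnatal day 9 (P9), which are 6 of the 27 arrays of a time course of parotid acinar cells. All 31042 probe sets that are not array controls were tested. The study followed these cells of the rat's serous salivary gland at 9 ages between embryonic day E18 and P25, with 3 Affymetrix arrays per age. At both ages the animals were untreated Sprague Dawley rats, and the sexes were not given. By the methods the RNA of an array came from a litter of its own, the gland was dissected and frozen at both ages, and caps of laser-captured acini were checked under the microscope before use. Heads, rather than glands, were sectioned up to P5, so the P9 to P15 step does not cross that change. Its errors and p-values do, as they share the spread of all 27 arrays, those from heads included. The RNA was amplified from 1.5 or 4.5 ng, and which array had which amount is not stated. Values are robust multi-array averages (RMA) on the log2 scale, in which 1 unit is a doubling, and they are not comparable between probe sets.

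Serous acinar cells make salivary proteins on the rough endoplasmic reticulum (ER), pack them into secretory granules and release them with fluid when nerves signal. They also carry polymeric immunoglobulin A from plasma cells across to the saliva. At both ages the pups still suckle, and the step to P20 that follows comes close to weaning.

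Between P9 and P15 the acinar samples gained transcripts of saliva proteins and of Pigr and Jchain, genes of immunoglobulin transport. The Pigr and Jchain calls each held in 2 of the 6 fits that left out an array. The samples lost 1 secreted protein of young glands along with hair and muscle transcripts. Chia, which encodes the secreted acidic chitinase, rose by 5.79 ± 0.35 log2 units (SE of the limma fit, 3 arrays per age, adjusted p = 2.75e-09). Dmbt1, the salivary agglutinin that binds bacteria, rose by 5.59 ± 0.91 (adjusted p = 0.013). Smgc, a mucin-like secreted protein best known from newborn rodent salivary glands, fell from a mean of 13.26 to 3.24. In all, 19 probe sets passed an adjusted p of 0.05, which is 0.0612% of those tested. Of these, 7 were higher at P15 (0.0226%) and 12 were lower (0.0387%). At an unadjusted p of 0.05, 1898 probe sets differed, 992 higher (3.2%) and 906 lower (2.92%), and the median difference over all probe sets was -0.01. Of the 19 called probe sets, 12 carry 1 gene symbol, 2 carry several and 5 carry none.

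**Figure D1:**
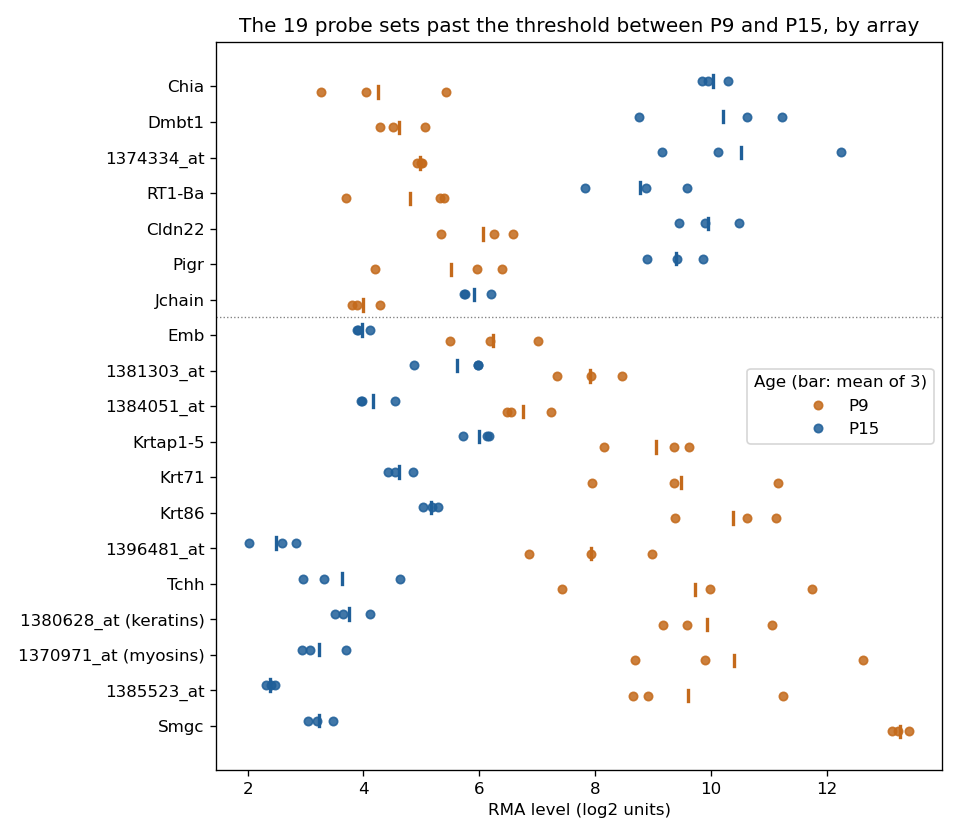
RMA level (x axis, log2 units) of the 19 probe sets past the threshold on each P9 array (orange) and each P15 array (blue), with a short bar at the mean of 3 arrays. The 7 probe sets above the dotted line were higher at P15, the 12 below it were lower, and in all 19 the arrays of both ages lie apart.

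Chia was the call with the smallest p. Its P9 arrays read 4.05, 3.26 and 5.42, and its P15 arrays read 9.84, 10.29 and 9.95. Every P15 array lies more than 4 units above every P9 array. From E18 to P5 its mean stayed between 3.05 and 3.24, and it reached 13.52 at P20 and 13.51 at P25. The P9 to P15 difference was past the threshold under all 16 alternatives tried, with values from 5.29 to 6.38.

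Cldn22 encodes a claudin, a family of tight junction proteins that seal the acinar lumen and set its ion leak. It read 6.59, 5.34 and 6.25 at P9 and 9.44, 10.49 and 9.90 at P15, a rise of 3.88 ± 0.35 (adjusted p = 1.99e-06). The ages do not overlap, and the level went on to 11.84 at P20. The unnamed probe set 1374334_at had a similar rise of 5.53 ± 0.49 (adjusted p = 1.99e-06), from 4.99, 4.93 and 5.01 to 12.25, 10.13 and 9.16. Both were past the threshold in 15 of 16 alternatives and missed it where the fit held only the 6 arrays (adjusted p = 0.0925 and 0.175).

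Dmbt1 read 5.06, 4.51 and 4.29 at P9 and 11.23, 10.63 and 8.75 at P15. P15 replicate 3 was the lowest of its age and still more than 3 units above P9. The call was lost without P15 replicate 1 (5.07, adjusted p = 0.139), P15 replicate 2 (5.37, adjusted p = 0.113) or P9 replicate 3 (5.42, adjusted p = 0.0558).

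A gene from each side of immunoglobulin A transport was called, for Jchain by a single probe set. Pigr encodes the polymeric immunoglobulin receptor, with which epithelial cells carry immunoglobulin A to the lumen. Its P9 arrays read 4.20, 5.96 and 6.39 and its P15 arrays 9.87, 8.90 and 9.41, a rise of 3.88 ± 0.66 (adjusted p = 0.0187). Jchain encodes the joining chain that plasma cells add to polymeric immunoglobulin. Probe set 1383163_at of Jchain read 3.89, 4.29 and 3.80 at P9 and 6.20, 5.76 and 5.74 at P15, a rise of 1.91 ± 0.31 (adjusted p = 0.013). Its P15 mean of 5.90 is below 6.07, the median level of all tested probe sets. The other Jchain probe set, 1384208_at, differed by 1.09 ± 0.37 (adjusted p = 0.614). Among the 13 markers of lymphocytes and plasma cells measured, Jchain was the 1 call, where 0.0226% of all probe sets rose. The median difference was 0.13. On the same list Mzb1, Pou2af1 and Tnfrsf17 differed by 0.26, 0.27 and -0.39. In a captured sample, more cells of a type cannot be told apart from more RNA per cell. Leaving out arrays ended the Pigr call for each P15 replicate and for P9 replicate 1, with adjusted p up to 0.144, and the Jchain call for P15 replicates 1 and 2 and P9 replicates 1 and 3, with adjusted p up to 0.139.

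The last named rise was RT1-Ba, the alpha chain of a rat class II major histocompatibility (MHC) molecule, which presents peptides to helper T cells. Probe set 1377334_at read 5.39, 5.32 and 3.69 at P9 and 9.59, 8.88 and 7.83 at P15, a difference of 3.97 ± 0.75 (adjusted p = 0.0446). The other 3 probe sets of RT1-Ba differed by 0.51, -0.56 and -0.34 and none was called, so the rise was seen by 1 probe set of 4. It missed the threshold when any of the 6 arrays was left out (adjusted p from 0.0667 to 0.284). It was also not on a steady course, since its mean was 8.30 at P5, 4.80 at P9, 8.77 at P15 and 6.17 at P20.

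Some other class II genes had higher P15 values without passing, and RT1-Bb, the beta chain that pairs with RT1-Ba, did not. RT1-Da, the alpha chain of the other classical class II molecule, read 7.38, 4.92 and 5.54 at P9 and 9.70, 8.16 and 8.0 at P15 (2.67 ± 0.61, adjusted p = 0.152). RT1-Db1, a beta chain, differed by 2.76 ± 0.82 and Cd74, the invariant chain that accompanies class II molecules, by 2.10 ± 0.70 (adjusted p = 0.454 and 0.566). RT1-Bb read 4.69, 4.79 and 5.30 at P9 and 4.46, 4.43 and 4.59 at P15 (-0.43 ± 0.31, adjusted p = 0.943), and then rose by 2.01 to P20 (adjusted p = 0.00177). Its values at P9 and P15 are below 6.07, the median level of all tested probe sets. Ciita, the coactivator of class II genes, read 4.35, 5.42 and 4.26 against 4.03, 5.51 and 4.05. Over 9 class II genes, a list added after the values were seen, the array means were 6.21, 5.85 and 5.66 at P9 and 7.69, 7.25 and 6.89 at P15. In 6 of them every P15 array lay above every P9 array, and in 1, RT1-Bb, every P15 array lay below. Over all probe sets these patterns held for 1968 (6.34%) and 2120 (6.83%). By age the mean of the class II list lay between 5.43 and 5.74 from E18 to P2. It was 6.93 at P5, 5.90 at P9 and 7.28 at P15, and the ages up to P5 came from head sections. P9 thus lay below both neighbours, as for RT1-Ba, which is on the list, but not below E18 to P2. The 15 macrophage markers had array means of 6.35, 6.97 and 6.73 at P9 and 7.17, 6.89 and 6.81 at P15, and their part in the class II values was not tested.

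The promoter windows of both alpha chains are shown because class II promoters share a Y box, whose core reads CCAAT on 1 strand and ATTGG on the other, and both genes differed in the same direction here. They are taken from RefSeq on the GRCr8 build, 250 bases before to 50 after the gene's start, written 5′ to 3′ along the gene. Capitals mark CCAAT, and also CCACG and CAGCTG, core motifs of the secretory factors XBP1 and MIST1, on either strand. RT1-Ba lies at chr20:4576807-4577106 and RT1-Da at chr20:4515165-4515464, both on the plus strand.
RT1-Ba: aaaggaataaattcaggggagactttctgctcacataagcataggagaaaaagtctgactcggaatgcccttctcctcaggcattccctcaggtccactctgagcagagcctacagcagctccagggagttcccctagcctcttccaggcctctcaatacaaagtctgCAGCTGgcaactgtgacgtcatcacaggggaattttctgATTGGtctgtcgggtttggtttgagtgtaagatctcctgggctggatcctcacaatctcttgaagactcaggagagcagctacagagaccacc
RT1-Da: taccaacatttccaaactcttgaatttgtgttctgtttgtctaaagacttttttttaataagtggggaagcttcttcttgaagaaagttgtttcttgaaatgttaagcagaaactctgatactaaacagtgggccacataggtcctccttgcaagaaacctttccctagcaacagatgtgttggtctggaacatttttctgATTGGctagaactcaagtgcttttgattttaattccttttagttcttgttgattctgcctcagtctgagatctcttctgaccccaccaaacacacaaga
Each window holds the Y box core once, read as ATTGG, and RT1-Ba also holds CAGCTG once. Over all 33469 windows of this length CCAAT was found in 37.5%, CCACG in 31.6% and CAGCTG in 15.1%, so single matches are common.

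For the largest rise and the largest fall the windows are given too, Chia at chr2:196302437-196302736 and Smgc at chr7:124897174-124897473, both on the plus strand.
Chia: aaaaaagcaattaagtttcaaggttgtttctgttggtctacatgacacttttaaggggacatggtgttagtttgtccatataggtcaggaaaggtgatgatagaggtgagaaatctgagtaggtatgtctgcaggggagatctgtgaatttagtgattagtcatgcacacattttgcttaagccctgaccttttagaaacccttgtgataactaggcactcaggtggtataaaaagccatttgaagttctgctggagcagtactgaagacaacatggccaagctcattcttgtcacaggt
Smgc: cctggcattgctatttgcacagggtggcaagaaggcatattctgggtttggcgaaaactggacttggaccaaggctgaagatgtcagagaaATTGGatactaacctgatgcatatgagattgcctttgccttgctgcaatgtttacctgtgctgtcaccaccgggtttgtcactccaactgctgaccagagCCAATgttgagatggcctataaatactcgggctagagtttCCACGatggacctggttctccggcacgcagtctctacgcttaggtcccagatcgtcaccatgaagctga
None of the 3 motifs is in the Chia window, while Smgc holds CCACG in 1 place and CCAAT in 2, counted on both strands. Of 15 genes looked up, 13 had a window in the RefSeq table, and Dmbt1 and Krt86 had none.

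Another 10 genes with a higher P15 mean were named by their p alone and did not pass, so they are given by values. Their adjusted p ran from 0.0533 to 0.167. Rnase1l2, a secreted ribonuclease of the pancreatic type, read 9.13, 8.42 and 9.03 at P9 and 10.44, 10.81 and 10.76 at P15 (1.81 ± 0.35, adjusted p = 0.0533). Galnt3, which starts O-linked sugar chains on mucin-type proteins, differed by 1.66 ± 0.32 and Ufl1, the ligase of the UFM1 protein tag that acts at the ER, by 1.35 ± 0.26 (adjusted p = 0.0533 for each). Ufl1 sat between 6.99 and 7.05 on the P9 arrays and between 7.83 and 8.72 on those of P15. Elf5, a transcription factor of glandular epithelium, differed by 1.60 ± 0.37, Nr4a2, a nuclear receptor of the immediate early kind, by 1.55 ± 0.34, and Atp8b1, a membrane lipid flippase, by 1.88 ± 0.44. The other 4 were RT1-Da, Gpatch4 (1.90), and the secreted proteins Prb3 (1.42) and Smr3a (1.83). Second probe sets gave less: 0.84 for Ufl1, -0.23 for Atp8b1, and 0.39, 0.11 and 0.03 for Gpatch4.

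**Figure D2:**
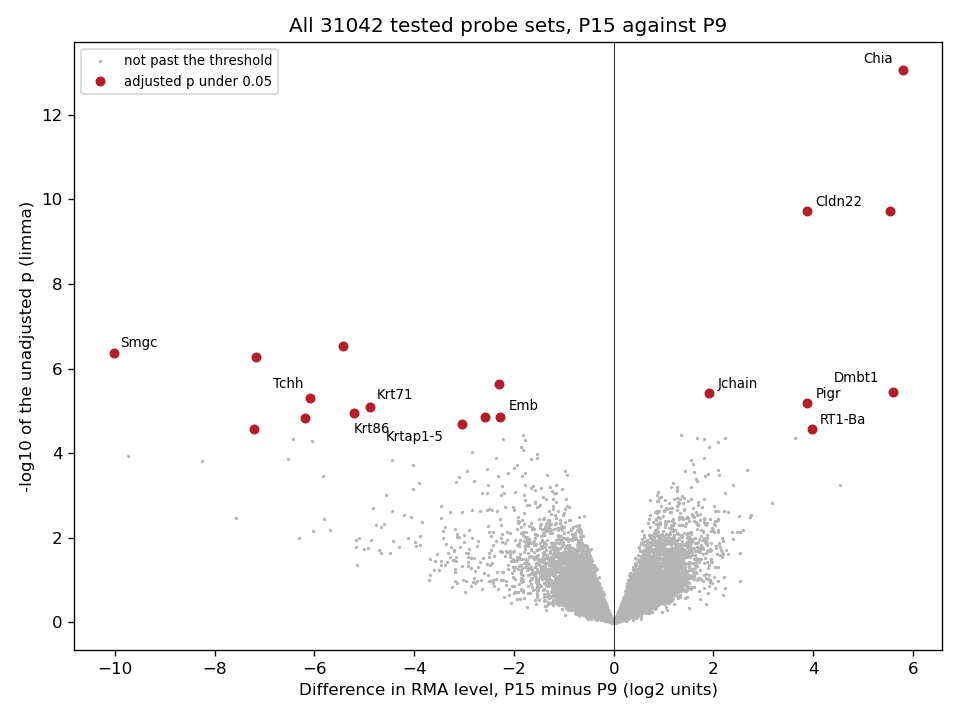
Difference in RMA level between P15 and P9 (x axis, log2 units) against the -log10 of the unadjusted limma p (y axis) for the 31042 tested probe sets. Red points are the 19 past the adjusted threshold, with the symbol where a probe set has 1, and Smgc at -10.02 and Chia at 5.79 are the outermost of them.

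Smgc had the largest difference of all 19 calls. It read 13.12, 13.23 and 13.42 at P9 and 3.05, 3.47 and 3.19 at P15, so the 3 arrays of each age lay within 0.5 units of one another and the ages 10.02 ± 1.41 apart (adjusted p = 0.00272). The SE is wider than these arrays alone would give because the spread is shared over 9 ages, and Smgc varied between arrays at others, with an SD of 2.94 at P20. Its mean climbed from 3.87 at P0 to 8.91 at P2, 11.64 at P5 and 13.26 at P9 before the drop. The call held in all 6 fits that left out an array, with values from -10.14 to -9.93. Oprpn, another mucin-like secreted protein, had a like profile without a call. It read 10.72, 10.82 and 12.16 at P9 and 2.67, 3.10 and 3.18 at P15 (-8.25 ± 1.80, adjusted p = 0.107). Its level then was 6.17 at P20 and 8.59 at P25. Both genes are on the list of 12 measured markers of mucous, sublingual and submandibular glands, of which the other 10 had no unadjusted p under 0.05, and Muc5b, a gel-forming mucin, read 7.56, 5.70 and 5.05 against 5.04, 5.86 and 5.35.

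Emb, or embigin, is a membrane partner of lactate transporters and a cell adhesion protein. It read 7.02, 6.19 and 5.50 at P9 and 3.91, 3.88 and 4.12 at P15, and fell by 2.27 ± 0.40 (adjusted p = 0.028). Its mean had stayed between 6.23 and 6.81 from E18 to P9. The call held only without P9 replicate 3 among the 6 fits that left out an array, and the adjusted p otherwise lay between 0.076 and 0.172.

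The remaining named falls were genes of hair. Tchh encodes trichohyalin, a protein of the hair's inner root sheath. It read 11.75, 9.98 and 7.42 at P9 and 4.63, 3.31 and 2.96 at P15 (-6.08 ± 1.01, adjusted p = 0.0159). Krt71, a keratin of the same sheath, differed by -4.88 ± 0.84 (adjusted p = 0.021), Krt86, a keratin of the hair shaft, by -5.21 ± 0.92 (adjusted p = 0.0273), and the keratin-associated protein gene Krtap1-5 by -3.04 ± 0.56 (adjusted p = 0.038). Probe set 1380628_at, which matches several hair keratin genes, fell by 6.18 ± 1.11 (adjusted p = 0.028). Leaving out an array ended these calls in most cases. Tchh passed only without P9 replicate 3 or P15 replicate 1, and Krt71, Krt86 and Krtap1-5 only without P9 replicate 3, with adjusted p otherwise from 0.0613 to 0.209. In Tchh and Krt71 the 3 P9 arrays had the same order, replicate 1 highest and replicate 3 lowest, and each of the 3 was above P15. Over 11 hair follicle genes, a list added after the values were seen, 4 fell, against 0.0387% of all probe sets. These are the falls already named above and no separate evidence. The array means of the list were 8.76, 7.84 and 6.73 at P9 and 4.77, 4.59 and 4.73 at P15. Of the 12 measured epidermis and hair markers 2 fell, again Tchh and Krt71, against the same 0.0387%. The median over the 12 was -1.21, with 1 difference above 0, against 48.8% of all probe sets. Krt1 and Krt10, the keratins of maturing skin, differed by 0.38 ± 2.31 and -0.38 ± 1.97, and Calml5 and Dsg1 by -3.18 ± 1.87 and -2.05 ± 2.10. These SEs share the spread of 9 ages. Within P9 and P15 the SDs were 0.51 and 0.50 for Krt1 and 0.83 and 0.51 for Krt10, but 2.66 and 0.24 for Calml5. The mean of the 12 markers had SDs of 2.42, 2.65 and 2.16 at E18, E20 and P0, against 0.97 at P9 and 0.27 at P15. With such SEs this fit cannot tell a change in Krt1, Krt10, Calml5 or Dsg1 from none.

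Skeletal muscle transcripts were also lower at P15. Probe set 1370971_at, which matches several myosin heavy chain genes, read 8.69, 9.89 and 12.63 at P9 and 3.07, 3.70 and 2.93 at P15, and fell by 7.17 ± 1.02 (adjusted p = 0.00272). None of the 16 single-gene muscle markers passed. Of them, 15 had an unadjusted p under 0.05 and a lower mean at P15, which 2.92% of all probe sets had. Their median difference was -4.81. The spread behind these p-values is that of 9 ages. The SD of the list's mean was 2.41, 2.31 and 1.94 at E18, E20 and P0, against 1.71 at P9 and 1.47 at P15. The array means of the markers were 9.09, 9.34 and 12.17 at P9 and 5.04, 5.01 and 7.57 at P15. Myh8, the perinatal myosin, read 11.93, 12.21 and 13.86 at P9 and 3.39, 3.21 and 8.69 at P15. Thus the third replicate was the highest in muscle at both ages, and the P15 array with the highest mean of the list stayed under each P9 array. Probe set 1383162_at, annotated as Myh1, was the marker without a shift and read between 11.96 and 12.29 on all 6 arrays.

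Of the blood cell lists, those of erythroid cells and of neutrophil granules had medians below 0 (-1.50 and -2.19), while those of macrophages and of lymphocytes and plasma cells were at 0.40 and 0.13. Of 5 erythroid markers 4 had a lower mean at P15 at an unadjusted p under 0.05, against 2.92% of all probe sets, and none passed, with array means of 6.36, 7.55 and 7.95 at P9 and 5.76, 5.87 and 6.16 at P15. Of 10 neutrophil granule genes, a list added after the values were seen, 8 had a lower mean at an unadjusted p under 0.05, against the same 2.92%, and none passed, and Lcn2 and Lyz2 differed by 0.56 and 0.05. RatNP-3b, a neutrophil defensin, read 3.93, 8.93 and 11.22 at P9 and 3.80, 3.18 and 3.74 at P15 (-4.45 ± 0.97, adjusted p = 0.107). Here P9 replicate 1 read like the P15 arrays and the other two stood above them, the reverse of the order in hair genes.

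**Figure D3:**
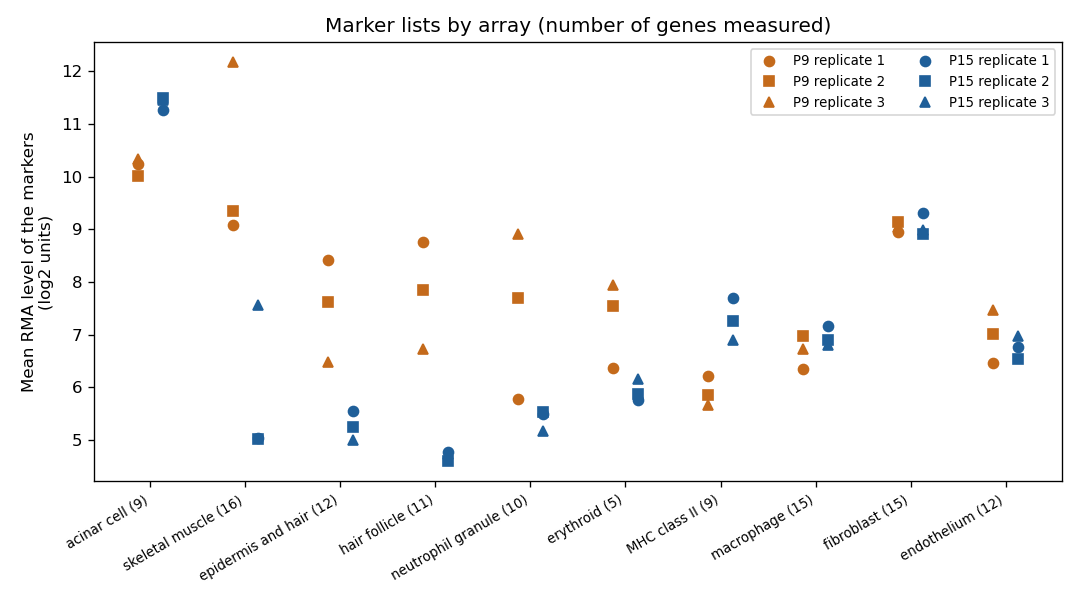
Mean RMA level (y axis, log2 units) of marker lists on each P9 array (orange) and each P15 array (blue), with the replicate shown by the shape and the number of genes in brackets. The muscle means were 9.09, 9.34 and 12.17 at P9 and 5.04, 5.01 and 7.57 at P15. Those of the acinar list lay between 10.01 and 10.34 at P9 and between 11.26 and 11.50 at P15. The fibroblast and endothelium means of both ages overlap, and levels are not comparable between lists.

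The part of blood cells in the 19 calls was not tested, and for skin and muscle 1 fit was run that cannot part them from age. Both marker means were higher on every P9 array than on any P15 array. Those of skin and hair were 8.41, 7.62 and 6.48 against 5.54, 5.25 and 4.99. When each array's mean of the epidermis and hair markers and of the muscle markers entered the fit as covariates, an alternative chosen after seeing the data, 3 calls were left: Chia at 5.68 ± 0.40 (adjusted p = 3.17e-07), 1374334_at at 4.87 ± 0.56 (0.000376) and Cldn22 at 4.02 ± 0.43 (0.000227). Smgc kept a difference of -9.36 ± 1.78 but not the call (adjusted p = 0.107), Dmbt1 was at 5.10 ± 1.14 (0.283) and Pigr at 4.04 ± 0.80 (0.132). Tchh and Krt71 belong to the epidermis list, so their values in that fit are not separate from the covariate. The other unnamed calls were 1396481_at (-5.43), 1381303_at (-2.30), 1384051_at (-2.59) and 1385523_at (-7.21), all lower at P15.

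A further 9 genes with a lower P15 mean were named by p alone, with adjusted p from 0.0533 to 0.145. Mex3a, an RNA-binding protein, differed by -2.21 ± 0.44 on 1 of its 3 probe sets and by -0.07 and 0.47 on the others. Epha3, a receptor of ephrin ligands, read 6.57, 6.11 and 6.11 at P9 and 4.44, 4.88 and 4.15 at P15 (-1.77 ± 0.35, adjusted p = 0.0544), and differed by -0.99 and -0.98 on its other probe sets. Bpifa1, a secreted relative of parotid secretory protein, differed by -2.35 ± 0.51 and its mean had declined from 9.68 at P0 to 6.82 at P9 and 4.47 at P15. Rsad2, an interferon-induced antiviral enzyme, differed by -1.65 ± 0.36. The hair keratin Krt25 (-6.04), the defensin genes Defa5 (-2.84), RatNP-3b (-4.45) and Np4 (-2.00), and Oprpn made up the rest. The defensin genes were placed on the neutrophil granule list after the values were seen.

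Most markers of the labelled cell type were present at both ages. Dnase1, the secreted deoxyribonuclease on the list of 9 acinar markers, read 3.70, 3.52 and 3.87 at P9. That is below 6.07, the median level of all tested probe sets. Amy1, salivary amylase, read 13.22, 12.60 and 12.85 at P9 and 13.61, 13.68 and 13.46 at P15. Bpifa2, parotid secretory protein, read 13.60, 13.35 and 13.27 and then 13.85, 14.07 and 13.80. In all 9 acinar markers every P15 array was above every P9 array, against 6.34% of all probe sets. None of the 9 passed the threshold, which 0.0612% of all probe sets did. Their median difference was 0.86 and their array means were 10.24, 10.01 and 10.34 at P9 and 11.26, 11.50 and 11.46 at P15. Smr3a, a submaxillary and parotid prohormone-like protein, read 11.89, 12.34 and 12.36 and then 13.96, 14.13 and 14.00 (1.83 ± 0.43, adjusted p = 0.167). Lpo, lactoperoxidase, which makes an antibacterial oxidant in saliva, differed by 2.02 ± 0.64, Pip, prolactin-induced protein, by 1.66 ± 0.53 and the water channel Aqp5 by 0.71 ± 0.52 (adjusted p = 0.511, 0.511 and 0.944).

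Salivary secreted proteins were the list with most calls. Of 28 measured, 4 rose (Chia, Dmbt1, Pigr and Jchain), 1 fell (Smgc), and 23 did not pass, where 0.0226% of all probe sets rose and 0.0387% fell. The list had a median difference of 0.77 against -0.01 over all probe sets. The lists were drawn up with earlier results of these data known. Cst5, a cystatin that inhibits cysteine proteases, read 6.15, 3.99 and 6.66 at P9 and 7.73, 11.52 and 11.18 at P15 (4.54 ± 1.12, adjusted p = 0.231). Car6, the secreted carbonic anhydrase, went the other way, with 9.47, 10.14 and 11.69 at P9 and 5.62, 6.57 and 5.39 at P15 (-4.57 ± 1.20, adjusted p = 0.297). Neither pair of ages overlaps, and the spread within an age was large in both. Lyz2, lysozyme, overlapped between the ages at 8.39, 10.62 and 12.01 against 11.19, 10.47 and 9.52.

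**Figure D4:**
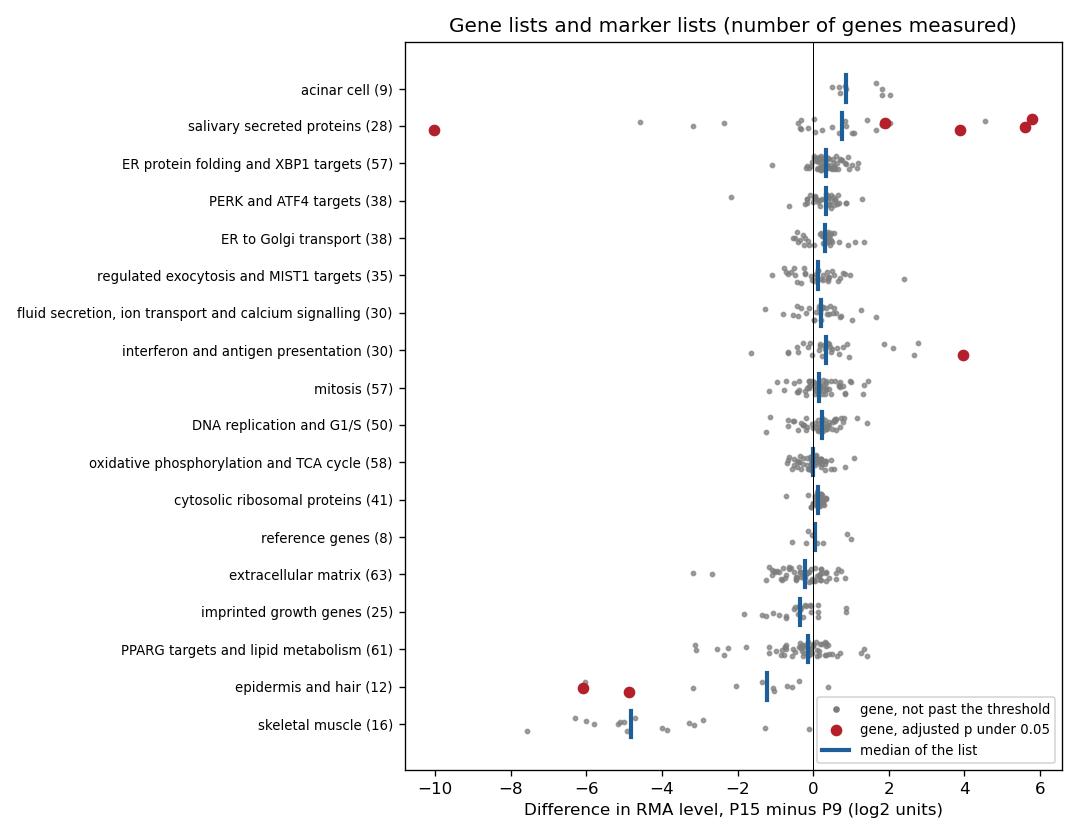
Difference in RMA level between P15 and P9 (x axis, log2 units) of each measured gene in 18 gene and marker lists, with the number of genes in brackets and a blue bar at the list's median. Red points passed the threshold, and the medians run from -4.81 for skeletal muscle to 0.86 for the acinar markers.

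The machinery that folds and moves these proteins shifted by little and without a call. With 0.0612% of all probe sets called, a list of such size would seldom hold one. Of 57 ER folding genes and XBP1 targets none passed, 51 had a difference above 0, against 48.8% of all probe sets, and the median was 0.33. In 15 of the 57 every P15 array was above every P9 array, against 6.34% of all probe sets, and in none were all below, against 6.83%. Spcs3, a signal peptidase subunit, differed by 0.86 ± 0.27, Selenos, which helps to export misfolded proteins, by 0.85 ± 0.28, and Edem1, which marks misfolded glycoproteins for removal, by 1.03 ± 0.38. Xbp1 itself, the factor that drives this programme, read 10.27, 9.74 and 10.83 at P9 and 10.80, 11.24 and 11.02 at P15 (0.74 ± 0.29, adjusted p = 0.699). Bhlha15, which encodes MIST1, differed by 0.83 ± 0.51 (adjusted p = 0.914). The 38 measured PERK and ATF4 targets had a median of 0.34 and no call, and their member with the largest t was Chac1, a glutathione-degrading enzyme, at -2.17 ± 0.61 (adjusted p = 0.397). Genes of ER to Golgi transport had a median of 0.31 over 38 and those of regulated exocytosis 0.12 over 35, again with no call. Stx3, a membrane fusion protein of apical secretion, read 4.30, 4.03 and 5.52 and then 7.52, 6.62 and 6.89 on probe set 1390447_at (2.40 ± 0.59, adjusted p = 0.231) and differed by -0.57 on its other probe set. For 30 genes of fluid secretion the median was 0.20, and Atp1b1, a sodium pump subunit, differed by 0.73 ± 0.22 (adjusted p = 0.454).

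Genes of growth and of the stroma gave no call either, where 0.0612% of all probe sets were called. The 57 mitosis genes had a median of 0.15 and the 50 replication genes 0.23. Bub1, a spindle checkpoint kinase, read 5.55, 6.90 and 6.87 at P9 and 8.33, 8.24 and 7.14 at P15 (1.46 ± 0.44, adjusted p = 0.474), and Cdk1, the mitotic kinase, differed by 1.00 ± 0.41. Extracellular matrix genes had a median of -0.22 over 63, with every P15 array below every P9 array in 14 (6.83% of all probe sets) and above in none (6.34%). Tnc, tenascin C, read 8.99, 10.47 and 8.77 and then 6.94, 6.28 and 6.94 (-2.69 ± 0.78, adjusted p = 0.409), and Col11a1, a fibrillar collagen chain, differed by -3.18 ± 1.04 (adjusted p = 0.554). Over 25 imprinted growth genes the median was -0.35, with Ndn at -0.90 ± 0.25 and the growth restraint gene Grb10 at -1.06 ± 0.37 (adjusted p = 0.39 and 0.622). The fibroblast markers had a median of -0.10.

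A list of regulators and acinar markers was drawn up around the study's network and is wider than it. Of its 18 measured genes none passed, against 0.0612% of all probe sets. Sox11, a factor of immature cells, read 6.26, 6.34 and 6.16 at P9 and 5.64, 5.39 and 5.71 at P15 (-0.67 ± 0.26, adjusted p = 0.699). Klf4 differed by -1.50 ± 1.00 and Ppargc1a, a coactivator of oxidative genes, by 1.34 ± 0.43, with overlapping ages and with 0.56 and -0.09 on its other probe sets. Prdm1, a repressor known from plasma cells, read 5.10, 5.90 and 4.29 and then 5.20, 3.84 and 3.52 (-0.91 ± 0.79, adjusted p = 0.964). Egr1 (-0.09), Myc (0.11), Atf6 (0.20) and Tead2 (-0.24) were within 0.25 units of 0. Targets of PPARG and lipid genes had a median of -0.14 over 61 with no call, and Acp5, tartrate-resistant acid phosphatase, read 8.34, 9.34 and 7.82 and then 6.03, 5.40 and 4.74 (-3.11 ± 0.73, adjusted p = 0.17). The 15 adipocyte markers had a median of -0.74 and no call, with 1 difference above 0, against 48.8% of all probe sets. Their array means were 7.62, 6.31 and 7.58 at P9 and 6.53, 5.92 and 6.42 at P15, and Pparg differed by -0.30 ± 0.47. The medians were -0.09 for 22 sterol synthesis genes, -0.01 for 58 oxidative phosphorylation genes, 0.13 for 41 ribosomal protein genes and 0.00 for 29 glucocorticoid-induced genes, and no member was called. Of 8 reference genes the median was 0.04, and Tbp read 3.93, 6.14 and 6.83 at P9 and 7.11, 6.46 and 6.32 at P15.

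Whether a gene's P9 to P15 difference was unlike its next one was tested per probe set as the difference between the P9 to P15 and the P15 to P20 steps, which share the P15 arrays. This passed for 11 probe sets (0.0354%), of which 10 had the lower value in the earlier step and 1, the unnamed 1391843_at, the higher (2.24 and then -2.25). Dnase1, the secreted deoxyribonuclease, read 3.70, 3.52 and 3.87 at P9 and 4.62, 5.30 and 6.57 at P15, a difference of 1.81 ± 0.39 that did not pass (adjusted p = 0.103), and the next step was 7.55 (adjusted p = 0.000266 between steps). Prb3, a proline-rich saliva protein, differed by 1.42 and then by 6.13 (0.000278). Prp15, of the same family, was at 3.53 and 3.38 and then rose by 7.66 to P20 (0.000266). Prb1 (-0.31 and then 3.97), Lcn1 (0.01 and then 3.85) and Vegp2 (0.01 and then 2.99), the latter both lipocalins, were alike, each with an adjusted p of 0.0101 between steps. Proline-rich protein genes are near copies of one another, so their probe sets may share signal. Probe set 1384208_at of Jchain differed by 1.09 and then by 5.23 (0.0101), while 1383163_at, the one called between P9 and P15, differed by 1.91 and then 4.63 and did not pass between steps (0.0993). The steps also differed for the myosin probe set 1370971_at, with -7.17 and then 3.50 (0.0165). Chia, in contrast, rose in both steps, by 5.79 and then 3.49, and the steps were not told apart (adjusted p = 0.538), with the same for Cldn22 (3.88 and 1.90, adjusted p = 0.778) and Dmbt1 (5.59 and 2.60, adjusted p = 0.987).

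Set beside its neighbours, the P9 to P15 step had 19 calls, the P15 to P20 step 111, of which 77 were higher at the later age, and the P5 to P9 step 9. These steps share arrays and the P5 arrays came from sections of heads, so the counts are given side by side only. Of the 6 named rises, Chia (adjusted p = 4.13e-06), Cldn22 (0.0101) and Jchain (6.46e-09) rose again to P20, while Pigr (2.86, adjusted p = 0.0616) and Dmbt1 (2.60, adjusted p = 0.347) did not pass and RT1-Ba differed by -2.60 (0.174).

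**Figure D5:**
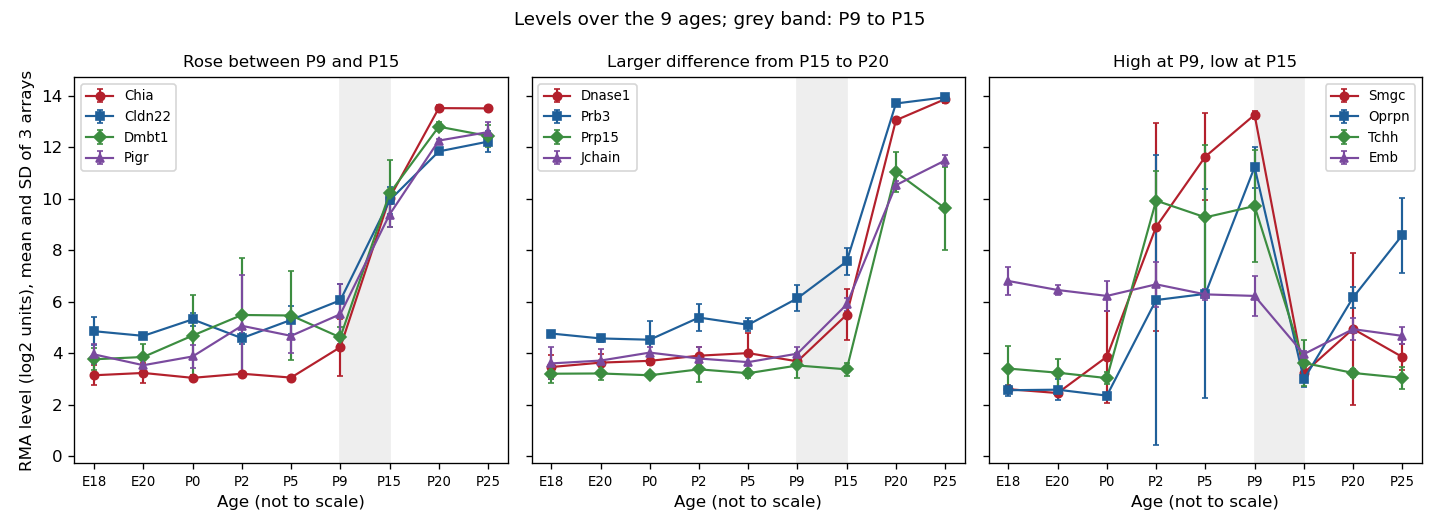
RMA level (y axis, log2 units; mean and SD of 3 arrays) over the 9 ages, evenly spaced on the x axis, with a grey band from P9 to P15. Chia, Cldn22, Dmbt1 and Pigr climb inside the band, Dnase1, Prb3, Prp15 and Jchain climb more after it, and Smgc, Oprpn, Tchh and Emb drop within it.

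Signs of RNA quality differed between the 6 arrays. The 3′ minus 5′ level of the Gapdh control probe sets, which grows as RNA is degraded or cut short in amplification, was 2.36, 1.36 and 1.92 at P9 and 2.23, 1.29 and 1.12 at P15, highest on replicate 1 of each age, and its part in the results was not tested. Array medians lay between 5.97 and 6.13. Pearson correlations over all probe sets, a description with probe sets that are not independent, were 0.946 to 0.962 among the P15 arrays and 0.887 to 0.940 among the P9 arrays, where both lower values involve P9 replicate 1, which also had the lowest array weight (0.454). Pairs of 1 array from each age lay between 0.890 and 0.950, and P9 replicate 2 correlated with the P15 arrays at 0.929 to 0.950, so the P9 arrays did not group apart by this measure. Without P9 replicate 1, 16 probe sets were called, 7 of them among the 19. Xist against Eif2s3y differed within each age, 1 array of 3 with the higher Xist at each, and with that difference as a covariate 18 were called, 17 of them among the 19.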

How the data were processed

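RNA from laser-captured parotid acinar cells was amplified and hybridised to Affymetrix expression arrays, 1 array per litter. The authors deposited log2 values, background corrected, normalised and summarised by RMA, with the software version not given in the sources used here. These log2 values were used as they stand. Of 31099 probe sets 57 array controls were left out. Of the 31042 tested, 20826 had 1 gene symbol in the platform annotation, 436 several and 9780 none, and 20758 matched RefSeq by gene ID. Groups came from the sample titles.

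All 27 arrays were fitted with limma 3.58.1 in R 4.3.3, 1 coefficient per age, with empirical Bayes moderation, 18 residual degrees of freedom and Benjamini-Hochberg adjustment over 31042 probe sets at 0.05. The fit was tested on simulated arrays in which each probe set varied independently, so transcripts that vary together on an array were not covered. P-values are two-sided, and errors in the text are SEs of the fit. The number of arrays limits the precision.

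Members of gene lists stand by the probe set with the highest mean over all arrays. Named genes were the 15 largest rises and falls past the threshold with 1 symbol, a mean above the median of all probe sets (6.07) at the higher age and arrays apart, filled by p, with up to 4 members per list by t, every network factor, the reference genes and up to 6 probe sets per direction for the difference between steps. The members and lists were chosen with earlier results of these data known. Alternatives were another filter, normalisation, choice of arrays, array weights, a replicate block, covariates, moderation and leaving out each array.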

Additional observations from a re-analysis of the deposited data

How the results depend on the processing

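Among the 19 calls 0 of 296 refitted differences changed sign, but RT1-Ba was at -0.56 and -0.34 on 2 of its other probe sets. The arrays of both ages lay apart in all 19, so fits that dropped or weighted arrays could not change a sign. Among named genes without a call 54 of 3157 refitted values and 20 of 94 values from another probe set changed sign. The number of calls did not hold. The 19 calls (7 higher and 12 lower at P15) became 33 (15 higher) with quantile normalisation, 8 (1 and 7) with only the 6 arrays of P9 and P15, 43 (15 and 28) with the 12 arrays of P9 to P25, 70 (25 and 45) with array weights and 3 (3 and 0) with the marker levels of skin and hair and of muscle as covariates, the last added after seeing the data. Without the probe sets whose mean level was under the median, 12 were higher and 8 lower at P15, and 4 probe sets differed between steps, against 11. Array weights gave 38 between steps. The 12 arrays of P9 to P25 are those of dissected gland, without the arrays from head sections. The causes were not tested. The 19 were all among the calls with quantile normalisation and with array weights, 16 with the 12 arrays and 5 with the 6 arrays.

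Leaving out 1 array gave 7 to 19 calls (3 to 8 higher, 4 to 13 lower) and 4 to 15 between steps. The calls were 8, 7 and 11 when P15 replicates 1, 2 and 3 were the array left out, and each of these left 4 between steps. With 2 arrays left at an age, that age is assumed to vary like the others. Chia, 1374334_at, Cldn22, 1396481_at, Smgc and 1370971_at were called in all 6 such fits, and RT1-Ba, 1380628_at, 1384051_at and 1385523_at in none.

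The labels number the replicates alike at each age, but same-numbered arrays did not deviate together (correlations of 0.10, 0.05 and 0.03), so the numbers were not taken as pairs. With the replicate number as a block 18 probe sets were called, 17 of them among the 19, and 9 between steps.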
